A study of Homo sapiens with 12 samples.

Results

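The comparison described here was that of U2OS-MycER cells carrying an shRNA against CDK12 (shCDK12) with cells carrying a non-targeting shRNA (shNT), both without 4-hydroxytamoxifen (OHT). It was made by EU-seq, in which RNA made during a short pulse of 5-ethynyl-uridine (EU) is tagged with biotin, captured and sequenced. The members were the libraries whose titles carry these names, 6 of the 12 libraries of the series and 3 in each group, taken under the labels as deposited. U2OS is a human osteosarcoma line, and MycER is a fusion of Myc with the ligand-binding domain of the estrogen receptor, which OHT switches on. All groups received doxycycline at 1 µg/mL to switch on the shRNA, nocodazole at 100 ng/mL for 8 h, a mitotic shake-off, a release of 12 h and EU at 0.5 mM in the last 2 h. The 3 libraries of shNT cells given OHT at 300 nM for 40 h (shNT_OHT) were set beside them as the measure of MycER activation. The labels did not say how many hairpins or clones were used, nor whether replicates were separate cultures, so p-values measure the spread between these libraries, which may be technical.

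CDK12 is a kinase that works with cyclin K. It phosphorylates the tail of RNA polymerase II and helps the polymerase to reach the end of the gene, and its loss is best known for lowering long genes and genes of homologous recombination and the Fanconi pathway, such as BRCA1, FANCI, FANCD2 and ATR. Myc binds DNA with its partner MAX at E-boxes with the letters CACGTG. It is known for raising genes of ribosome biogenesis, nucleotide and polyamine synthesis and growth, and for repressing genes of adhesion, cell matrix and cell cycle arrest. Gene lists for both programmes, and for other pathways, were therefore read side by side in shCDK12 against shNT and in shNT_OHT against shNT. These 2 comparisons share the shNT libraries. The direct comparison of shCDK12 with shNT_OHT was added, in which a member called differs between the libraries labelled shCDK12 and MycER activation alone.

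The targeted gene was measured first. CDK12 was at 326, 287 and 311 CPM (counts scaled to a common library size, after TMM) in the shNT libraries and at 297, 280 and 300 CPM in those labelled shCDK12. The groups overlapped, and the log2 fold change was -0.08 (SE 0.08, adjusted p = 0.447). CDK13, the close relative of CDK12, was at 163 to 182 CPM in shNT and 172 to 174 CPM in shCDK12, and CCNK, which encodes cyclin K, at 51.4 ± 6.63 and 58.6 ± 2.59 CPM (SD, n = 3). Neither was called. EU-seq captures RNA labelled during the pulse of 2 h, so the total level of CDK12 mRNA and that of the protein were not measured here. Whether the shRNA lowered them was not tested. CDK12 was called higher upon MycER activation in shNT cells (log2 fold change 0.384, adjusted p = 0.0352). It was called lower in shCDK12 than in shNT_OHT (-0.435, adjusted p = 0.0107). On a common scale over all 12 libraries CDK12 was at 289 to 323 CPM in shNT, 277 to 298 CPM in shCDK12, 356 to 434 CPM in shNT_OHT and 208 to 218 CPM in the libraries labelled shCDK12_OHT. The lowest levels of the targeted gene thus stood under another label, and whether each label marks the libraries it should was not tested. The groups are called the libraries labelled shCDK12 where a direction is drawn.

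Library totals ran from 1928373 to 5227279 counts in shNT (median 4314380) and from 4142570 to 9400045 in shCDK12 (median 5349901). The 6 libraries fell into their groups, with a Pearson correlation of log2 CPM across genes of 0.97 to 0.99 within groups and 0.84 to 0.86 between them, and no library stood apart. Mouse RNA was mixed in before capture, at 10 µg to 40 µg of human RNA, but the table used here held human genes only, so a gain or loss of transcription shared by all genes is invisible and every value is relative to the other genes. Of the 8 osteoblast and mesenchymal markers RUNX2, COL1A1, VIM and ALPL had counts in every library, while TWIST1 was at 0 in 5 of the 6 and COL1A2 and SP7 had at most 13 counts. Summed over the list these markers were at 736 to 775 CPM in shNT and 333 to 367 CPM in shCDK12, 8 epithelial markers at 38.6 to 48.0 and 57.1 to 65.5 CPM, and 8 blood markers at 1.65 to 4.07 and 3.60 to 5.40 CPM.

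Transcription differed widely between the groups. Of 11718 genes tested 7265 (62.0%) were called at an adjusted p under 0.05 (edgeR's quasi-likelihood test), 3465 (29.6%) higher and 3800 (32.4%) lower in the libraries labelled shCDK12. Changes of at least 2-fold were fewer, at 1054 genes higher and 1349 lower, and changes of at least 8-fold were found at 46 and 37 genes. The majority of lower genes was not firm, since 54.7% of the called genes were higher with upper-quartile normalization against 47.7% here. In the same test MycER activation in shNT cells called 1782 of 10272 genes (17.3%), 930 (9.05%) higher and 852 (8.29%) lower. The direct comparison of shCDK12 with shNT_OHT called 4400 of 11238 genes (39.2%), 2119 (18.9%) higher and 2281 (20.3%) lower. Single libraries moved these last counts. The first was 751, 670 and 818 without shNT replicates 1, 2 and 3 and 1101 without shNT_OHT replicate 3, and the second 2856 and 2877 without shCDK12 replicates 2 and 3. The shares of members given below are to be read against these. The shNT_OHT libraries held 1251695 to 3666406 counts, fewer than any shCDK12 library. Replicate 1 of shNT_OHT differed more from replicates 2 and 3 (chi-square per degree of freedom 8.57 and 9.31) than these did from each other (3.80). Without shNT_OHT replicates 1 and 2 the count upon MycER activation was higher, at 2523 and 2365. A change may thus be called less readily upon MycER activation, and the parts of depth and of spread between libraries were not tested.

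**Figure D1:**
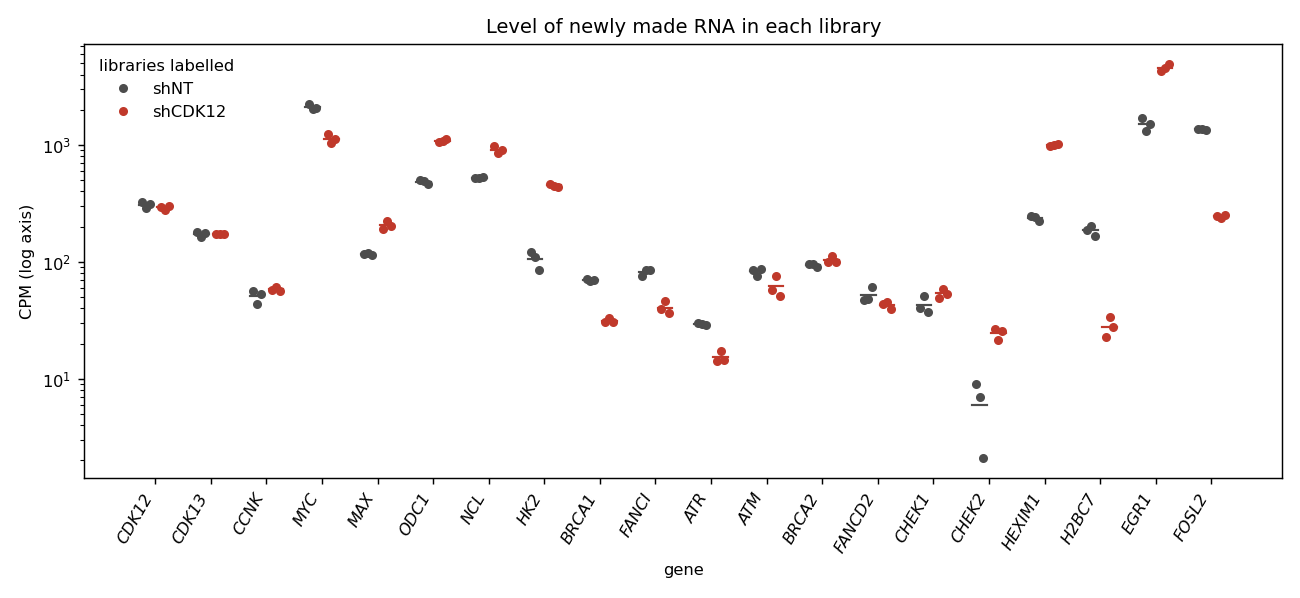
Level of newly made RNA in each library, in CPM on a log axis, for 20 genes; points are the 3 libraries of a group and the short line is their mean. CDK12, CDK13, CCNK, ATM and CHEK1 overlap between the groups, while MYC, BRCA1, FANCI, ATR, H2BC7 and FOSL2 are lower and MAX, ODC1, NCL, HK2, CHEK2, HEXIM1 and EGR1 higher in every library labelled shCDK12.

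The Myc network itself shifted. MYC was at 2241, 2029 and 2088 CPM in shNT and at 1230, 1044 and 1131 CPM in shCDK12, a log2 fold change of -0.90 (SE 0.08, adjusted p = 1.80e-10). Every library labelled shCDK12 was below every shNT library. Reads of the MYC gene and of the MycER transgene cannot be told apart in gene counts. MYC did not pass the test upon MycER activation in shNT cells (-0.09, adjusted p = 0.575) and was lower in shCDK12 than in shNT_OHT (-0.79, adjusted p = 0.00019). MAX, the partner that Myc needs to bind DNA, was at 117, 118 and 114 CPM in shNT and 191, 222 and 202 CPM in shCDK12, a log2 fold change of 0.82. Of 11 network genes tested, out of 13, 7 were higher and 3 lower. MXI1 and MXD1, which compete with Myc for MAX, rose by 1.84 and 1.33 on the log2 scale, and MLX, the partner of the glucose-sensing factors of the family, fell by 1.61.

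Myc target genes of ribosome biogenesis were higher in the libraries labelled shCDK12. Of 66 members tested, out of 67, 44 rose and 5 fell, with a median log2 fold change of 0.45 beside -0.03 over all genes tested. Upon MycER activation 31 of 66 rose and 0 fell (median 0.43), and in the direct comparison 5 of 67 were higher and 13 lower (median -0.09). NCL, which encodes the nucleolar protein nucleolin, was at 518, 526 and 531 CPM in shNT and 973, 854 and 900 CPM in shCDK12. Its log2 fold change was 0.79 in shCDK12 and 0.81 upon MycER activation, and 0.00 (adjusted p = 0.988) between those groups. POLR3G, a subunit of RNA polymerase III, and DDX10, a helicase of the nucleolus, rose most, by 2.00 and 1.37 on the log2 scale. POP1, a subunit of the ribonucleases P and MRP, and DDX56, another helicase, fell most, by 1.00 and 0.85.

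The second list, Myc targets of metabolism and growth, was more mixed. Of 47 tested members, out of 49, 25 rose and 9 fell (median 0.39), against 27 and 0 upon MycER activation (median 0.52). In the direct comparison 11 of 47 were higher and 18 lower. ODC1, the first enzyme of polyamine synthesis, was at 504, 489 and 467 CPM in shNT and 1070, 1074 and 1118 CPM in shCDK12, a 2.23-fold difference (log2 1.16, SE 0.08, adjusted p = 1.31e-12), beside a log2 fold change of 0.76 upon MycER activation. HK2, the hexokinase that starts glycolysis, was at 121, 110 and 85.3 CPM and at 468, 446 and 440 CPM, and CCND2, a G1 cyclin, at 550, 505 and 479 CPM and at 1830, 1754 and 1784 CPM. Both rose upon MycER activation too, by 1.53 and 1.32 on the log2 scale. CAD and SLC7A5 did not follow. CAD, which starts pyrimidine synthesis, was at 104, 103 and 93.6 CPM in shNT and 122, 96.8 and 96.6 CPM in shCDK12 (log2 fold change 0.06, adjusted p = 0.674), whereas it rose by 0.81 upon MycER activation, and it was lower in shCDK12 than in shNT_OHT (-0.72, adjusted p = 0.00369). SLC7A5, a carrier of large amino acids, was at 1417, 1367 and 1524 CPM and fell to 787, 723 and 751 CPM, with a log2 fold change of -0.93 in shCDK12 beside 0.08 (adjusted p = 0.654) upon MycER activation.

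E-boxes were looked up in the RefSeq promoter windows of GRCh38.p14, which hold 250 bases before and 50 after each gene's start. The letters CACGTG read the same on both strands. They were present in 7.43% of all 27305 windows and in 10.4% of those of protein-coding genes tested, in 11.5% of the called higher, 9.12% of the called lower and 10.6% of the others. Of the ribosome biogenesis targets with a window 23 of 57 (40.4%) held an E-box, and of these 14 rose and 1 fell, against 21 and 3 of the 34 without. Of the metabolism and growth targets 14 of 43 (32.6%) held one, of which 6 rose and 3 fell, against 15 and 5 of the 29 without. The 4 sites below, shown with their flanks, none past the gene's start, and with the E-box in capitals, were picked after the values were seen, to set targets that rose beside targets that fell with the same letters.
HSPE1 and HSPD1 (chr2:197500330-197500378, strand of HSPE1): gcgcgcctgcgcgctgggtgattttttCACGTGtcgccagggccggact
EIF4E (chr4:98929173-98929232, minus strand): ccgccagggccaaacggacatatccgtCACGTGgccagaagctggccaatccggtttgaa
MTHFD1 (chr14:64388311-64388352, plus strand): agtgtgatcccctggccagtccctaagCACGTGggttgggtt
SLC7A5 (chr16:87869605-87869664, minus strand): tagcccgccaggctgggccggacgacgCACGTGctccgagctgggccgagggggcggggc

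HSPE1 and HSPD1, which encode the paired mitochondrial chaperonins, start on opposite strands, and the E-box between them begins 22 bases before the start of HSPE1 and 88 before that of HSPD1. HSPE1 was at 14.9, 18.6 and 6.76 CPM in shNT and 34.3, 46.2 and 36.9 CPM in shCDK12, and HSPD1 at 224, 239 and 230 CPM and at 283, 333 and 318 CPM. Both rose, by 1.44 and 0.43 on the log2 scale. EIF4E, the cap-binding translation factor, rose by 1.37. MTHFD1, an enzyme of one-carbon metabolism, was at 69.3, 65.5 and 71.8 CPM in shNT and 44.4, 40.1 and 45.1 CPM in shCDK12 and fell by 0.67, and the fall of SLC7A5 was given above. An E-box in the window was thus found in genes of either direction.

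Genes known to be repressed by Myc were mostly lower, and the largest falls were those of matrix genes. Of 35 tested members, out of 39, 18 fell and 8 rose (median -0.42), against 10 and 1 of 31 upon MycER activation (median -0.22). In the direct comparison 17 of 34 were lower and 8 higher. FN1, which encodes fibronectin, was at 662, 648 and 694 CPM in shNT and 41.5, 35.5 and 38.8 CPM in shCDK12, and TGFBI, a matrix protein induced by TGF-beta, at 578, 634 and 596 CPM and at 46.2, 50.0 and 51.3 CPM. Their log2 fold changes were -4.12 and -3.61 in shCDK12, -0.93 and -0.77 upon MycER activation, and -3.17 and -2.82 in the direct comparison. FN1 is also a member of the matricellular, TGF-beta and YAP list below, so these lists are not independent. CDKN1A, the cell cycle inhibitor p21, fell by 0.57 on the log2 scale in shCDK12, from 2223 to 2452 CPM to 1531 to 1646 CPM, and was at -0.06 (adjusted p = 0.756) upon MycER activation. TXNIP, a thioredoxin inhibitor that Myc is known to repress, went the other way in both, at 39.2, 44.6 and 31.2 CPM in shNT and 227, 236 and 221 CPM in shCDK12, with log2 fold changes of 2.53 and 2.14.

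**Figure D2:**
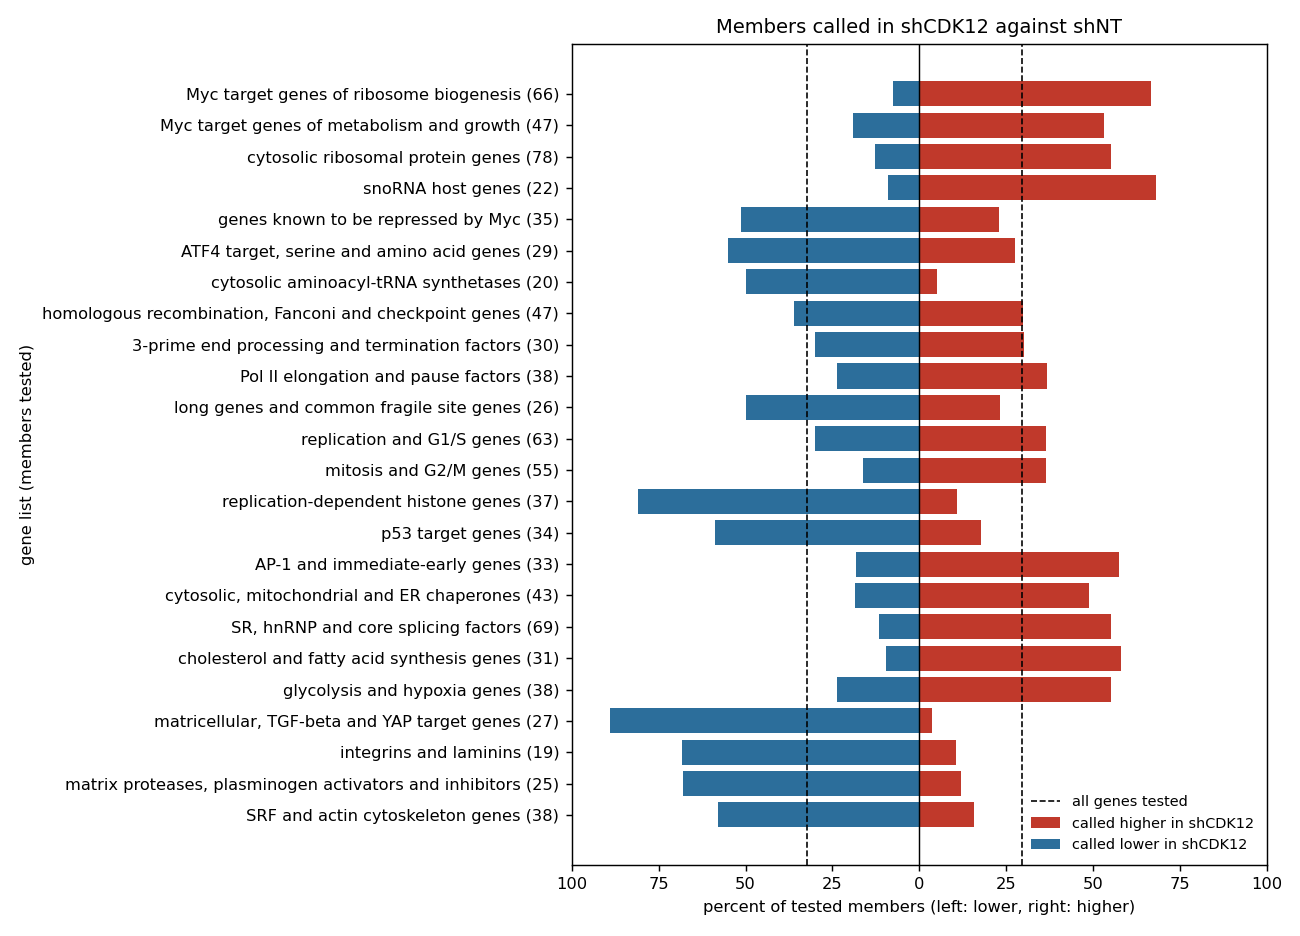
Percent of the tested members of 24 gene lists called higher (right) or lower (left) in shCDK12 against shNT, with the number tested after each name; dashed lines mark the 29.6% and 32.4% of all genes tested. Bars to the right are longest for snoRNA host genes and Myc targets of ribosome biogenesis, and bars to the left for matricellular and histone genes, while the homologous recombination list stays near both lines.

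Genes of homologous recombination, the Fanconi pathway and the checkpoints, the class most often tied to CDK12, moved in both directions. Of 47 tested members, out of 48, 17 fell and 14 rose, which is 66.0% called beside 62.0% of all genes, with a median of -0.14. Upon MycER activation 3 of 45 fell and 1 rose, and in the direct comparison 11 of 47 were lower and 7 higher. BRCA1, a mediator of homologous recombination, was at 71.1, 68.0 and 70.2 CPM in shNT and 30.5, 33.3 and 30.6 CPM in shCDK12, a 2.21-fold difference (log2 -1.14, SE 0.13, adjusted p = 6.25e-08). FANCI, a subunit of the complex at stalled forks, was at 75.2, 84.5 and 85.8 CPM and at 39.4, 45.9 and 36.4 CPM, and ATR, the kinase of the replication checkpoint, at 30.3, 29.5 and 28.6 CPM and at 14.3, 17.3 and 14.6 CPM. All 3 were lower in every library labelled shCDK12. BRCA1 was also called lower upon MycER activation (-0.50, adjusted p = 0.0497) and was lower in shCDK12 than in shNT_OHT (-0.62, adjusted p = 0.0149).

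Other members of the class were mixed. FANCD2, the partner of FANCI, was at 46.8, 48.1 and 61.4 CPM in shNT and 43.9, 45.2 and 39.6 CPM in shCDK12 (log2 fold change -0.25, adjusted p = 0.131). BRCA2, a mediator of strand exchange, was at 90.0 to 96.0 CPM and 99.0 to 112 CPM (0.14, adjusted p = 0.243), and CHEK1, a checkpoint kinase, overlapped between groups (0.31, adjusted p = 0.0671). ATM, the kinase that senses double-strand breaks, was called lower (-0.40, adjusted p = 0.0142) although its groups overlapped. SLX4, a scaffold of nucleases, was among the members that fell most, at -1.17. CHEK2, the kinase that ATM activates, and FANCB, a subunit of the Fanconi core complex, rose most, by 1.87 and 1.29, although CHEK2 had only 38, 36 and 4 counts in the shNT libraries. Named after their values were seen, BARD1, the partner of BRCA1, fell by 0.92, while PALB2 and WEE1 rose by 0.74 and 1.04 on the log2 scale.

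Genes were also grouped by length. Over 5 equal groups of protein-coding genes ordered by their span in RefSeq, each of 2195 genes, the median log2 fold change was -0.03 in the shortest (median span 5.76 kb) and -0.08 in the longest (median span 165 kb). That difference of -0.057 was -0.148 when the libraries were thinned to equal depth and -0.097 without shCDK12 replicate 2. The share called lower was 33.2% in the first and 35.3% in the last, and the share called higher 32.5% and 25.9%. Upon MycER activation the medians went from 0.19 in the shortest to -0.23 in the longest, a wider range, and in the direct comparison from -0.19 to 0.15, so that relative to MycER activation alone long genes were higher in shCDK12. Transcript GC content moved with the result as well, with medians from 0.10 at the lowest GC to -0.13 at the highest, opposite to the medians upon MycER activation (-0.22 and 0.13). Spans and GC content are related, and among genes of lower GC the median was 0.10 in the shortest and -0.06 in the longest group, and among those of higher GC -0.07 and -0.15. No test was made of these trends.

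A list of long and common fragile site genes was lower. Of 43 members 26 were tested, with a median span of 818 kb, and 13 fell and 6 rose (median -0.58). Upon MycER activation 5 of 21 fell and 0 rose (median -0.41), and the direct comparison gave 5 higher and 4 lower of 24. LSAMP, a neuronal adhesion gene, was at 102, 115 and 134 CPM in shNT and 20.4, 32.2 and 23.9 CPM in shCDK12. PDE4D, a phosphodiesterase gene, went the other way, at 5.20, 6.01 and 10.4 CPM and at 21.6, 26.7 and 24.4 CPM. Members whose groups were both low did not reach the test.

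**Figure D3:**
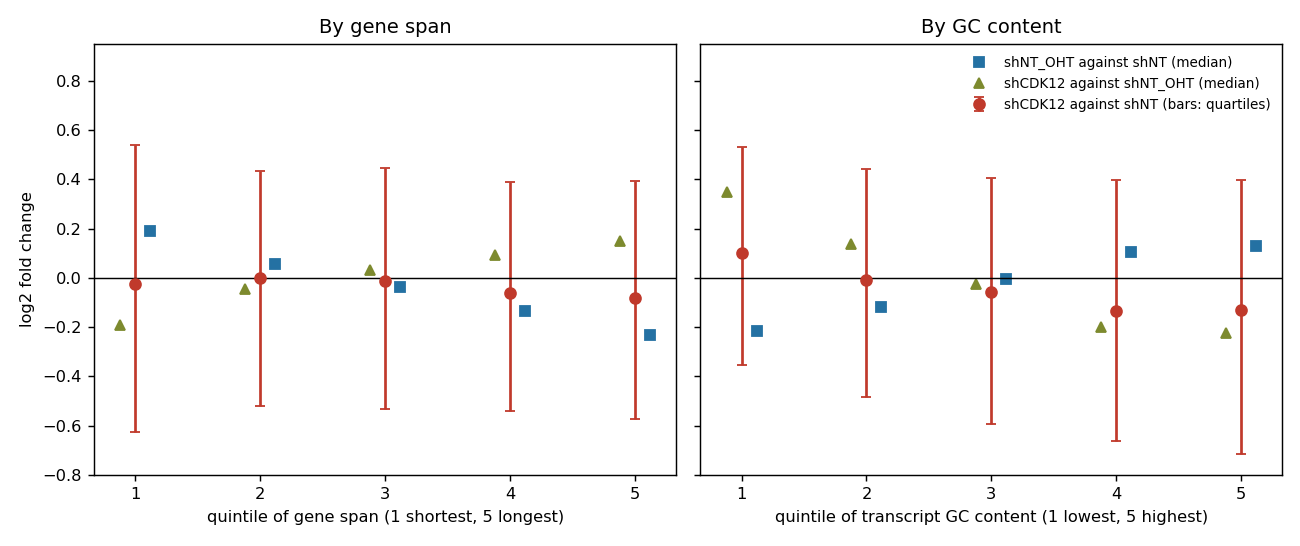
Median log2 fold change of protein-coding genes by quintile of gene span (left) and transcript GC content (right); circles are shCDK12 against shNT with bars from the lower to the upper quartile of genes, squares shNT_OHT against shNT and triangles shCDK12 against shNT_OHT. The circles go from -0.03 in the shortest to -0.08 in the longest genes, and the squares go from 0.19 to -0.23.

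The machinery around CDK12 showed single genes with large changes. Of 38 elongation and pause factors 14 rose and 9 fell (median 0.19). HEXIM1, the inhibitor that holds the kinase P-TEFb inactive, was at 249, 242 and 225 CPM in shNT and 982, 996 and 1014 CPM in shCDK12, a 4.17-fold difference (log2 2.06, SE 0.08, adjusted p = 6.37e-17). It did not pass the test upon MycER activation (0.15, adjusted p = 0.403). MLLT3, a reader of the super elongation complex, rose by 2.44 on the log2 scale from a level of 8.14 to 9.45 CPM in shNT, and NELFE, a subunit of the pausing factor NELF, fell by 1.12. Of 30 factors of 3' end processing and termination 9 rose and 9 fell, with CPSF2, a subunit of the cleavage complex, at -1.06 and SSU72, a phosphatase of the polymerase tail, at 0.94. Of 48 Mediator and Integrator subunits 9 rose and 14 fell, with MED26 at 1.61 and MED22 at -1.33. Of 69 splicing factors 38 rose and 8 fell (median 0.29), beside 11 and 0 of 66 upon MycER activation. Use of early polyadenylation sites cannot be read from gene counts.

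Replication-dependent histone genes, whose RNAs are made in S phase, had the lowest median of the pathway lists. Of 64 members 37 were tested, and 30 fell and 4 rose (median -1.27). Per library, the median of the list relative to the shNT mean was -0.07 to 0.07 in shNT and -1.27 to -1.12 in shCDK12, on the scale of log2 (CPM + 1). Upon MycER activation 3 of 33 rose and 4 fell (median 0.16), and the direct comparison gave 30 lower and 4 higher of 37. H2BC7, which encodes a histone H2B, was at 187, 203 and 168 CPM in shNT and 22.5, 33.7 and 27.6 CPM in shCDK12. The abundant H1-2, named after its values were seen, fell less, from 2005 to 2191 CPM to 1040 to 1276 CPM. H4C4, at 3.31 to 4.46 and 31.5 to 33.0 CPM, H2AC8, H2BC8 and H4C3 rose. Histone genes are near copies of each other, so how reads were shared among them is uncertain. Fewer cells in S phase and less histone RNA per cell cannot be told apart in these bulk libraries. Replication and G1/S genes had 23 of 63 higher and 19 lower (median 0.09) and mitosis and G2/M genes 20 of 55 higher and 9 lower (median 0.06), and their part in the histone result was not tested.

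Stress genes split by type. Of 29 tested targets, out of 30, of ATF4, the factor of the amino acid response, 16 fell and 8 rose (median -0.35), whereas upon MycER activation 16 of 29 rose and 0 fell (median 0.61). In the direct comparison 16 of 29 were lower and 3 higher. ADM2, a peptide hormone gene, fell from 102 ± 8.68 to 32.2 ± 5.93 CPM (SD, n = 3), and CBS, an enzyme of cysteine synthesis, fell by 1.66 on the log2 scale. The members that rose were led by transcription factors. ATF3 was at 275, 258 and 239 CPM in shNT and 1126, 1182 and 1411 CPM in shCDK12, and ATF5 rose by 1.63. Aminoacyl-tRNA synthetases, which load amino acids onto tRNA, had 10 of 20 lower and 1 higher (median -0.24), beside 5 higher and 0 lower upon MycER activation, and 14 of 20 were lower in the direct comparison. AARS1, the enzyme for alanine, was at 131, 133 and 140 CPM and at 72.3, 54.1 and 59.1 CPM, with log2 fold changes of -1.13 in shCDK12 and 0.16 (adjusted p = 0.435) upon MycER activation.

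Of 43 chaperone genes 21 rose and 8 fell (median 0.23), beside 10 and 0 of 42 upon MycER activation (median 0.25). The inducible HSP70 genes rose most, HSPA1B from 23.9 ± 4.92 to 183 ± 29.3 CPM (SD, n = 3) and HSPA1A 6.50-fold. These 2 genes are nearly identical, so the split of reads between them is uncertain, and neither passed the test upon MycER activation (adjusted p = 0.153 and 0.543). Over the whole chaperone list the direct comparison gave 9 higher and 9 lower of 42. Of 34 p53 targets 20 fell and 6 rose (median -0.59), with TP53I3 at 62.2, 65.5 and 79.6 CPM in shNT and 12.7, 15.9 and 13.8 CPM in shCDK12. MDM2, the ligase that degrades p53, was at 1556 to 1618 and 1327 to 1517 CPM, at the edge of the threshold (-0.17, adjusted p = 0.0429). Immediate-early genes, which respond to growth signals within minutes, had 19 of 33 higher and 6 lower (median 0.46), beside 17 and 2 upon MycER activation, and 14 were higher and 13 lower in the direct comparison. EGR1 was at 1702, 1310 and 1504 CPM in shNT and 4266, 4532 and 4961 CPM in shCDK12, and FOS and FOSB rose by 1.59 and 2.29 on the log2 scale. JUN did not pass the test (-0.11, adjusted p = 0.190), and FOSL2, another subunit of AP-1, fell from 1370, 1379 and 1347 CPM to 248, 235 and 254 CPM.

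**Figure D4:**
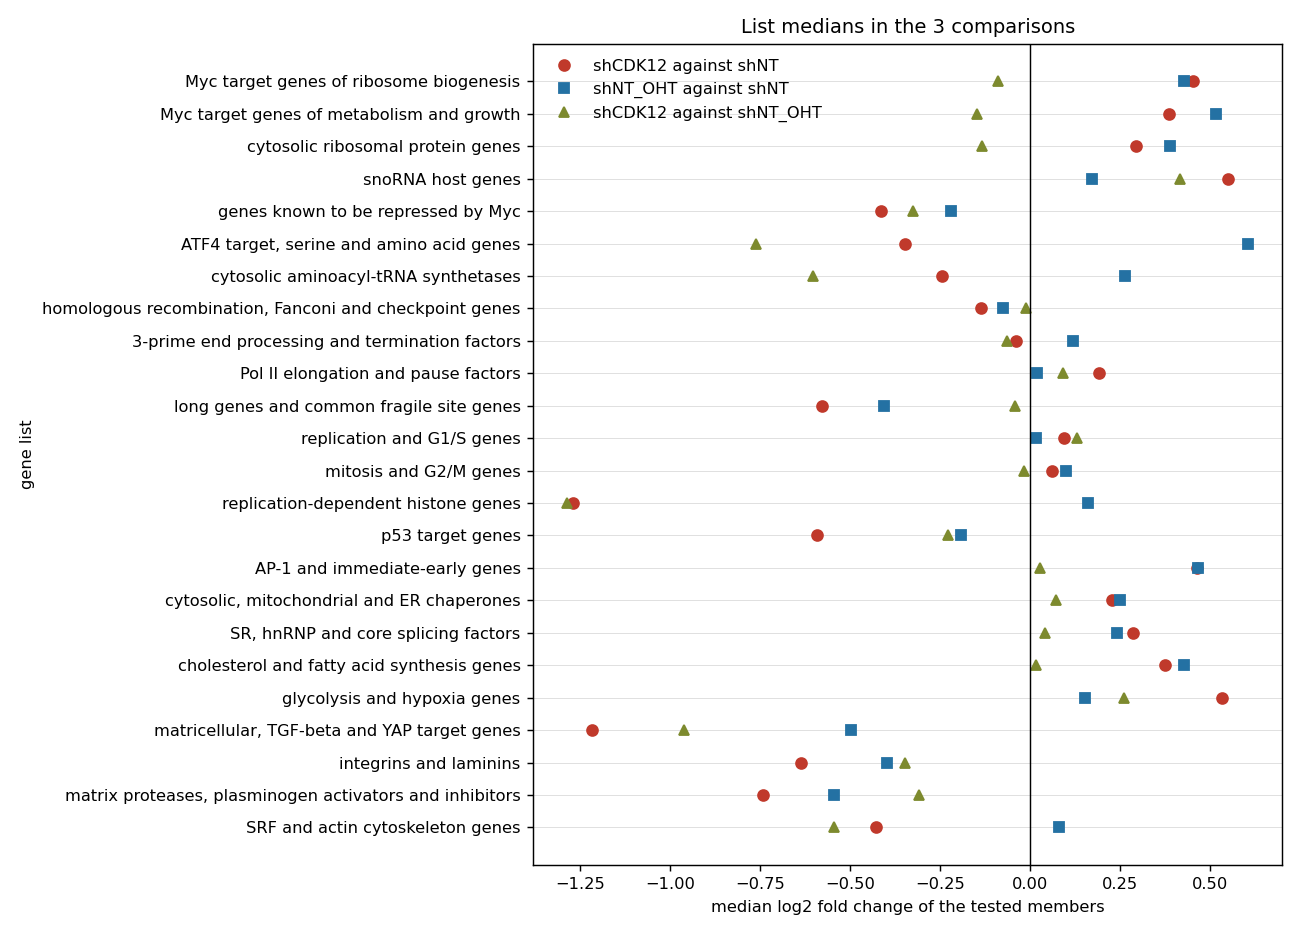
Median log2 fold change of the tested members of 24 gene lists in shCDK12 against shNT (circles), shNT_OHT against shNT (squares) and shCDK12 against shNT_OHT (triangles). Circles and squares lie together for Myc targets of ribosome biogenesis (0.45 and 0.43) and apart for ATF4 targets (-0.35 and 0.61) and histone genes (-1.27 and 0.16); the first 2 comparisons share the shNT libraries.

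Matrix and adhesion genes were mostly lower. Of 37 matricellular, TGF-beta and YAP target genes 27 were tested, and 24 fell and 1 rose (median -1.22), against 12 and 1 of 26 upon MycER activation (median -0.50). In the direct comparison 19 of 27 were lower and 2 higher. Per library the median relative to the shNT mean was about -0.01 in shNT and -1.33 to -1.16 in shCDK12, on the scale of log2 (CPM + 1). LTBP2, which binds latent TGF-beta in the matrix, was at 365, 362 and 351 CPM in shNT and 25.6, 23.4 and 23.9 CPM in shCDK12. CCN3, a matricellular growth regulator, was the gene that rose, from 25.3, 32.9 and 20.8 CPM to 94.8, 109 and 98.5 CPM. Named after their values were seen, THBS1 and ANKRD1, both known YAP or TGF-beta targets, were at 2104 to 2522 CPM in shNT and 376 to 645 CPM in shCDK12.

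Related lists went the same way. Integrins and laminins had 13 of 19 lower and 2 higher (median -0.64), and ITGA3, a laminin receptor, fell from 474, 489 and 494 CPM to 80.3, 85.1 and 75.6 CPM. Among 17 tested upon MycER activation 6 fell and 1 rose (median -0.40), and the direct comparison gave 9 lower and 2 higher of 19. Matrix proteases, plasminogen activators and inhibitors had 17 of 25 lower and 3 higher (median -0.74), and TIMP1, the inhibitor of metalloproteinases, fell from 723 ± 7.18 to 98.7 ± 4.51 CPM (SD, n = 3). This list had 9 of 20 lower and 2 higher upon MycER activation (median -0.55), and 8 lower and 6 higher of 23 in the direct comparison. Of 38 SRF and actin genes 22 fell and 6 rose (median -0.43), while upon MycER activation 5 rose and 2 fell (median 0.08), and 25 of 37 were lower in the direct comparison. VCL, the adhesion protein vinculin, was at 271, 259 and 261 CPM and at 76.3, 68.8 and 70.0 CPM, whereas ACTB, the main actin gene, overlapped between the groups (0.09, adjusted p = 0.253). The osteoblast factor RUNX2 and COL1A1, both markers of the line, fell by 1.85 and 1.80. Both were also called lower upon MycER activation, with log2 fold changes of -0.70 and -0.80. The summed osteoblast markers given above moved with these lists, and their part in the result was not tested.

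Several growth lists were higher. Of 78 cytosolic ribosomal protein genes 43 rose and 10 fell (median 0.29), with RPL41 at 1.21 and RPL35A at -0.82. Upon MycER activation 34 rose and 0 fell (median 0.39), and in the direct comparison 8 of 78 were higher and 21 lower. Host genes of snoRNAs had 15 of 22 higher and 2 lower (median 0.55), beside 6 and 0 of 20 upon MycER activation (median 0.17). SNHG12, such a host, was at 126, 114 and 104 CPM and at 298, 331 and 323 CPM. All snoRNA genes tested, within these hosts or not, had 44 of 87 higher and 5 lower (median 0.59). Their median upon MycER activation was 0.47. The library kit marks strand but the counting setting is not given, and reads of a snoRNA and its host cannot be told apart. Of 38 glycolysis and hypoxia genes 21 rose and 9 fell (median 0.53), beside 10 and 4 of 35 upon MycER activation (median 0.15). LDHA and GAPDH rose by 0.54 and 0.59 on the log2 scale in shCDK12. Of 31 cholesterol and fatty acid synthesis genes 18 rose and 3 fell (median 0.37), with ELOVL6, an elongase, at 1.55 and FADS1, a desaturase, at -1.05. Upon MycER activation 10 of 30 of them rose and 0 fell (median 0.43).

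The remaining lists held members called in both directions, beside 29.6% higher and 32.4% lower over all genes. Mitochondrial ribosomal protein genes had 23 of 70 higher and 14 lower (median 0.09), beside 15 and 0 of 69 upon MycER activation (median 0.31). In the direct comparison 5 of 70 were higher and 15 lower (median -0.26). Respiratory chain genes had 19 of 68 higher and 15 lower (median -0.04). Proteasome subunits had 10 of 40 higher and 12 lower, with PSMD13 at -1.77. ZNF genes, a large family of zinc finger repressors, had 156 of 404 higher and 112 lower, and ZNF792 was at 90.1, 66.5 and 59.3 CPM in shNT and 14.1, 10.2 and 15.1 CPM in shCDK12. NF-kB and cytokine genes had 10 of 24 higher and 12 lower. Interferon and antigen presentation genes had 6 of 23 higher and 10 lower, although HLA-B and B2M, the chains of class I antigen presentation, rose by 1.88 and 1.27. HOX genes had 8 of 16 higher and 5 lower, with HOXA11 at 2.01 and HOXB3 at -2.23. Lysosome and autophagy genes had 9 of 44 higher and 16 lower, and CTSB, a lysosomal protease, fell by 2.29. Collagens had 5 of 19 higher and 9 lower, TGF-beta receptors, SMADs and SKI genes 7 and 10 of 22, IGF genes 3 and 5 of 9, and circadian genes 8 and 8 of 19, among them NR1D1 and BHLHE40, repressors of the clock, at 1.99 and -1.79.

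The 10 genes that fell most and the 10 that rose most among protein-coding genes with a mean normalized count of at least 100 were chosen by this comparison, and their values are a description. IGFBP5, a binding protein of insulin-like growth factors, was at 91.2, 79.1 and 86.8 CPM in shNT and 0.235, 1.69 and 0.746 CPM in shCDK12, where it had 1, 16 and 4 counts. SERPINA1, an inhibitor of elastase, was at 65.9, 83.1 and 82.2 CPM and at 4.22, 3.07 and 1.68 CPM. SLCO2A1, a prostaglandin carrier, CSF2, a cytokine, MAF, a transcription factor, PLAU, the urokinase, and COL6A3, a collagen, had log2 fold changes from -4.99 to -3.74, and FN1 and LTBP2 were also among the genes that fell most.

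Among the genes that rose, PEG3, an imprinted zinc finger gene, was at 44.7, 45.9 and 35.4 CPM in shNT and 741, 670 and 717 CPM in shCDK12. RGS16, which shortens G protein signals, was at 98.3, 102 and 106 CPM and at 1121, 985 and 1112 CPM. Both started from measurable levels. Upon MycER activation PEG3 had a log2 fold change of 2.00 and RGS16 of 2.15, beside 4.04 and 3.40 in shCDK12. ANKRD30B, with the largest rise among genes above that count, had 9, 11 and 3 counts in shNT against 225, 611 and 282 in shCDK12. ADCYAP1R1, the receptor of the neuropeptide PACAP, had 26, 7 and 1 counts against 326, 491 and 322. DCAF8L2, RND1, ZNF280A, DCAF4L1, CA12 and SLC6A11 had log2 fold changes from 3.95 to 3.05 and at most 12.5 CPM in any shNT library. These genes were at low levels in shNT cells, and their folds are less certain than their direction. ADCYAP1R1, CA12, DCAF4L1 and SLC6A11 were also called higher upon MycER activation, by 3.71, 1.87, 1.73 and 1.52 on the log2 scale. ANKRD30B, DCAF8L2, RND1 and ZNF280A did not reach the test there.

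**Figure D5:**
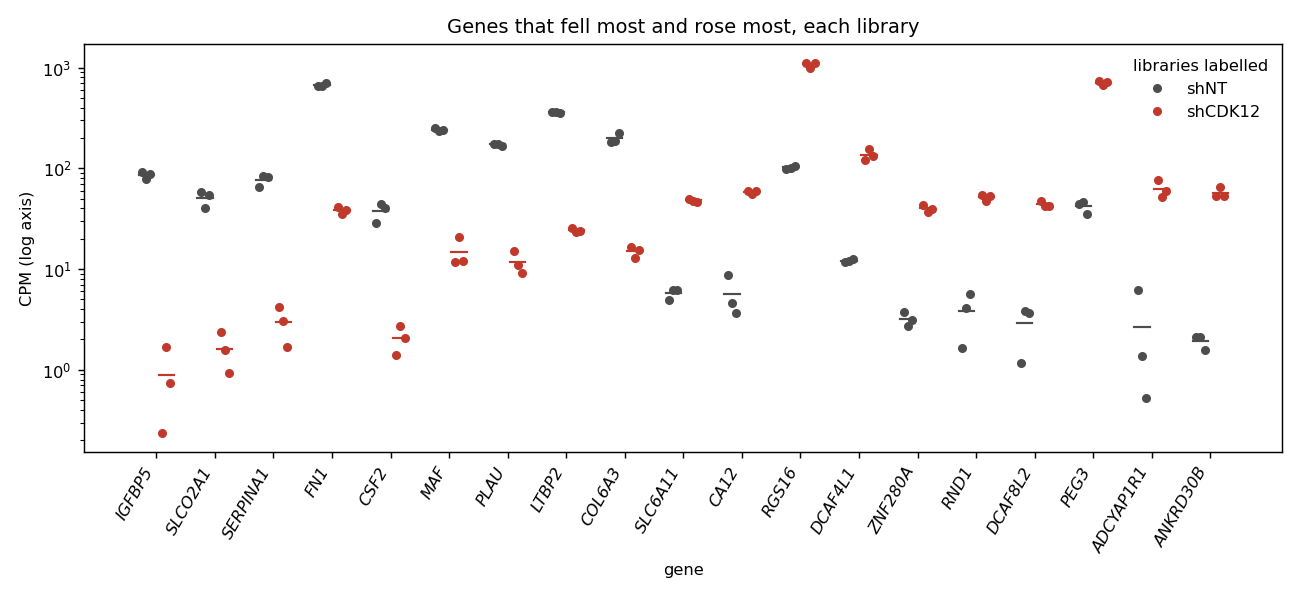
Level in each library, in CPM on a log axis, of 9 of the 10 genes that fell most (left) and the 10 that rose most (right) in shCDK12 against shNT among those with a mean normalized count of at least 100; points are libraries and the short line is the mean of 3. No gene overlaps between the groups, as the choice required, and IGFBP5 and ADCYAP1R1 have the widest spread in their low group.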

How the data were processed

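EU-seq libraries of U2OS-MycER cells were compared, 3 labelled shCDK12 with 3 labelled shNT, with 3 of shNT_OHT beside them. The authors deposited raw counts per Entrez gene (23434 rows) without normalization. The submitters' processing notes name STAR 2.7.5c, featureCounts 1.4.5-p1 and hg19. Strand use is not given in the sources used here. Symbols and spans came from RefSeq of GRCh38.p14, with a symbol for 23284 rows and a span for 23280, and 150 rows had no symbol but were tested. GC content was that of the longest GENCODE transcript of each symbol, for 22700 rows. Since the builds differ, no coordinates of counted genes are given. Each pair of groups was fitted by itself with the quasi-likelihood method of edgeR 4.0.16 (R 4.3.3) after TMM scaling. Genes whose normalized counts averaged more than 32 in that fit were kept, and p-values were adjusted by Benjamini-Hochberg. SE was the log2 fold change over the square root of F. Counts were simulated with 200 genes changed 2-fold and the rest unchanged. In shCDK12 against shNT 178 of 199 genes changed were recovered, with 8 false calls among 11589. Recovery was 144 of 196 in shNT_OHT against shNT and 142 of 199 in shCDK12 against shNT_OHT. Far more genes (62.0%) were called in the real shCDK12 against shNT, so the rate of false calls there is not known from this. The named genes were CDK12, CDK13, CCNK, MYC and MAX, the 10 largest rises and falls among protein-coding genes with an adjusted p under 0.05, a mean normalized count of at least 100 and no overlap, up to 2 called members each way per list, and 18 genes tied to Myc, CDK12, p53 or growth. A few of these genes are not reported here. The comparison, lists and rules were chosen with earlier results of these data known. The alternatives were another tool (DESeq2 1.42.0), upper-quartile scaling, filterByExpr or no filter, a replicate block, 1 fit of all 12 libraries, each library left out, and thinning to equal depth. Totals were 1928373 to 9400045 counts per library in shNT and shCDK12 and 1251695 to 3666406 in shNT_OHT. This limits the precision for genes with few counts.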

Additional observations from a re-analysis of the deposited data

How the results depend on the processing

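The count of genes called in shCDK12 against shNT stayed within 1.5 times of 7265 in all alternatives run, and so did the counts recomputed for lists, which were members called higher for the Myc target lists, lower for the Myc-repressed, ATF4, histone and matricellular lists, and either way for homologous recombination. The median log2 fold change over all genes was -0.03 here, 0.06 with upper-quartile normalization and 0.12 with no filter on low counts. The count in shNT_OHT against shNT was 3256 with all 12 libraries in 1 fit and 670 to 2523 with each library left out, and that in shCDK12 against shNT_OHT 2760 when thinned to equal depth and 2856 to 4794 with each library left out. The cause was not tested. Leaving out or thinning leaves fewer counts, yet the count in shNT_OHT against shNT rose to 2523 and 2365 without shNT_OHT replicates 1 and 2. The share of called genes that were higher was 49.0% with DESeq2, 49.5% with filterByExpr, 51.2% with no filter, 54.7% with upper-quartile normalization and 45.9% to 49.9% with each library left out.

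In shCDK12 against shNT, CDK12 was at 0.015 with upper-quartile normalization and was not called in any alternative. CDK13, also never called there, was at 0.012 with DESeq2, 0.037 when thinned, 0.083 with upper-quartile normalization and -0.039 to 0.032 with each library left out. Upper-quartile normalization moved the list medians to 0.541 for Myc targets of ribosome biogenesis, 0.476 for those of metabolism and growth, -0.046 for homologous recombination genes, -0.255 for ATF4 targets, -1.179 for histone genes and -1.128 for matricellular genes. With DESeq2 the ribosome biogenesis median was 0.470 and the ATF4 median -0.326, and when thinned the ATF4 median was -0.417, that of Myc-repressed genes -0.663 and the difference between the longest and the shortest genes -0.148 in place of -0.057. Leaving out each library gave 0.422 to 0.485 and 0.339 to 0.431 for the Myc target lists, -0.571 to -0.346 for Myc-repressed genes, -0.177 to -0.080 for homologous recombination, -0.412 to -0.332 for ATF4, -1.310 to -1.187 for histone and -1.274 to -1.152 for matricellular genes, and -0.097 to -0.034 for the difference by span. The ATM call was lost in 2 alternatives and that of MDM2 in 8, and CHEK1 gained a call in 4.

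Medians near 0 changed sign. Proteasome subunits were at 0.083 with upper-quartile normalization, 0.012 with DESeq2 and -0.039 to 0.044 with each library left out, respiratory chain genes at 0.065, 0.043 when thinned and -0.026 to 0.051, factors of 3' end processing at 0.049 and -0.132 to 0.041, and replication genes at -0.018 to 0.145 with each library left out. CAD was at -0.056 to 0.112 with each library left out. Replicate numbers were not taken to pair libraries (r of 0.096, 0.076 and 0.017 between the deviations of same-numbered libraries, -0.106 to 0.036 for different numbers), and with the replicate block 7437 genes were called in shCDK12 against shNT, 1734 in shNT_OHT against shNT and 5109 in shCDK12 against shNT_OHT. Depth limits the genes with few counts in shNT.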
